A study of Mus musculus with 6 samples.

Results

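Proteins fold with the help of chaperones, and the genes examined here encode the chaperones and stress response factors of the endoplasmic reticulum (ER) and the heat shock chaperones of the cytosol and the mitochondrion. They were listed by what their products do, with earlier results of these data known. They number 48, with 25 of the ER and 23 of the cytosol or mitochondrion. The arrays read a gene by 1 or more probe sets, which are groups of short oligonucleotides. Each gene was represented by its brightest probe set, that with the highest mean over all 6 arrays, among probe sets annotated to exactly 1 gene. Such a probe set was at hand for 46 of the 48 genes, and all 46 were bright enough to be tested. The whole table held 18194 genes with a probe set of this kind, and 14184 of them were tested. Hsp90ab1 and Hsf1 are not analysed here.

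The study compared the sensory epithelia of hearing and of balance in the newborn inner ear. The mice were wild type C3H at postnatal day 2, untreated and without an engineered allele in either group, and 3 arrays read the cochlea and 3 the vestibule. Vestibular tissue came from utricle and saccule and from the anterior and lateral cristae. Epithelia of several ears were pooled for each sample and kept the mesenchyme beneath them and the neurons attached to them, so RNA of several cell types was on every array. The sources used here do not say which pool each array read, and the p-values therefore cover only how far the arrays of a tissue lie apart, which can be technical in part. Levels are log2 values, and each difference is the vestibule minus the cochlea on that scale, so that a negative difference stands for a gene that was higher in the cochlea. A gene was called where the limma adjusted p was under 0.1 and the fold was at least 1.3, the thresholds of the paper.

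Secreted and membrane proteins fold in the ER, where Hsp70 and Hsp90 family chaperones, lectin chaperones and disulfide isomerases bind them, and proteins that fail are sent out for degradation. When unfolded proteins build up there, the sensors Ern1, Eif2ak3 and Atf6 start the unfolded protein response, which raises the genes of ER folding and degradation. In the cytosol the heat shock factor Hsf1 does the corresponding work for Hsp70, Hsp90, their J protein partners and the small heat shock proteins, while the chaperonin CCT folds actin and tubulin. Sensory epithelia of the inner ear secrete much matrix, among it the tectorial membrane of the cochlea and the otoconial membrane of the vestibule, and heat shock proteins are known for protecting hair cells of the utricle under stress.

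The tissue labels were checked on genes outside the group. Fgfr3, a receptor of cochlear supporting cells, read 10.0 to 10.2 on the cochlear arrays and 6.3 to 6.7 on the vestibular ones. Otop1, which is needed to form otoconia, the mineral grains of the vestibule, read 3.6 to 4.2 in the cochlea and 8.1 on each vestibular array. Both stood at the extreme of their lists. Of the 9 markers of cochlear supporting cells and the tectorial membrane that were tested, 3 were called higher in the cochlea (Fgfr3, Tecta and Tectb), 2 in the vestibule (Otog at 1.5 and Gjb6 at 1.13) and 4 were not called, and of 5 otoconial genes 2 were called higher in the vestibule (Otop1 and Oc90). The mixture of cells also differed. Of the hair cell markers tested, 6 of 8 were called higher in the vestibule, where their mean level was 8.76 to 8.85 over the arrays against 7.34 to 7.61 in the cochlea. Neuron markers were called higher in the cochlea in 9 of 10 cases, with a mean level of 8.11 to 8.62 there and 6.73 to 6.97 in the vestibule. All 10 macrophage markers were called higher in the vestibule (8.94 to 9.22 against 7.19 to 7.56), and so were all 7 melanocyte markers (7.87 to 8.03 against 6.23 to 6.76). In such bulk samples fewer cells of a type and less RNA per cell cannot be told apart, and the part of the cell mixture in the differences below was not tested. The 3 prime minus 5 prime log2 difference of the actin control probe sets, a measure of RNA integrity, was 2.6 on cochlea replicate 3 and 1.9 to 2.1 on the other 5 arrays. That of Gapdh was 2.8 on the same array and 2.1 to 2.4 on the others. Cochlea replicate 3 was alone the lowest of the 3 cochlear arrays for 11 of the 25 ER genes, against 2 and 4 for replicates 1 and 2. Among the 21 cytosolic and mitochondrial genes it was alone the lowest for 6, against 7 and 5. Other arrays stood apart as well. Cochlea replicate 2 was alone the highest of its tissue for 12 of the 25 ER genes, and vestibule replicate 1 for 11. The part of RNA integrity or of any single array in the results was not tested. Without cochlea replicate 3 the numbers of called members stayed at 1, 4, 3 and 0 in the order given next.

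For 38 of the 46 genes of protein folding no difference between the tissues was called. Of the 25 ER genes, 1 was called higher in the vestibule (Herpud1) and 4 were called higher in the cochlea (Sdf2l1, Pdia4, Hyou1 and Ern1). Of the 21 cytosolic and mitochondrial genes tested, 3 were called higher in the vestibule (Hspb1, Hsph1 and Hspb8) and 0 were called higher in the cochlea. At an unadjusted limma p under 0.05, 8 of the ER and 4 of the cytosolic and mitochondrial genes differed in either direction. The share of all genes at that limit is not given here, so these counts are a description only. Over all 14184 genes, 15.1% were called towards the vestibule and 7.97% towards the cochlea. Beside that background stand 4% and 16% of the ER genes, and 14.3% and 0% of the cytosolic and mitochondrial genes. These shares rest on 0 to 4 genes each, and whether they differ from the background was not tested, so they are given as a description. The median difference was 0.03 for the ER genes, the same as over all genes, and 0.10 for the cytosolic and mitochondrial genes. That of the ER genes turned to -0.03 when cochlea replicate 3 was left out. Over all genes, every vestibular array was above every cochlear one in 19.9%, and every cochlear array was above in 12.4%. Among the 25 ER genes these were 3 and 5, and among the 21 cytosolic and mitochondrial genes 4 and 1, so that arrays that do not overlap are not in themselves a result about these genes.

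The size of the difference in the remaining genes is described by their confidence intervals. Among the 38 members that were not called, no difference was larger than 0.37 in either direction. A call needed a difference of at least 0.3785, so this maximum follows in part from leaving out the called genes. For 25 of the 38 the 95% confidence interval lay wholly between -0.5 and 0.5, and for the others it reached farther. The differences of all genes, called ones included, had quartiles of -0.17 and 0.23. Arrays of the vestibule lay closer together than those of the cochlea, with a larger standard deviation in the cochlea for 33 of the 46 members and in the vestibule for 8. The same held over all genes, with a median standard deviation of 0.17 in the cochlea and 0.12 in the vestibule.

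**Figure D1:**
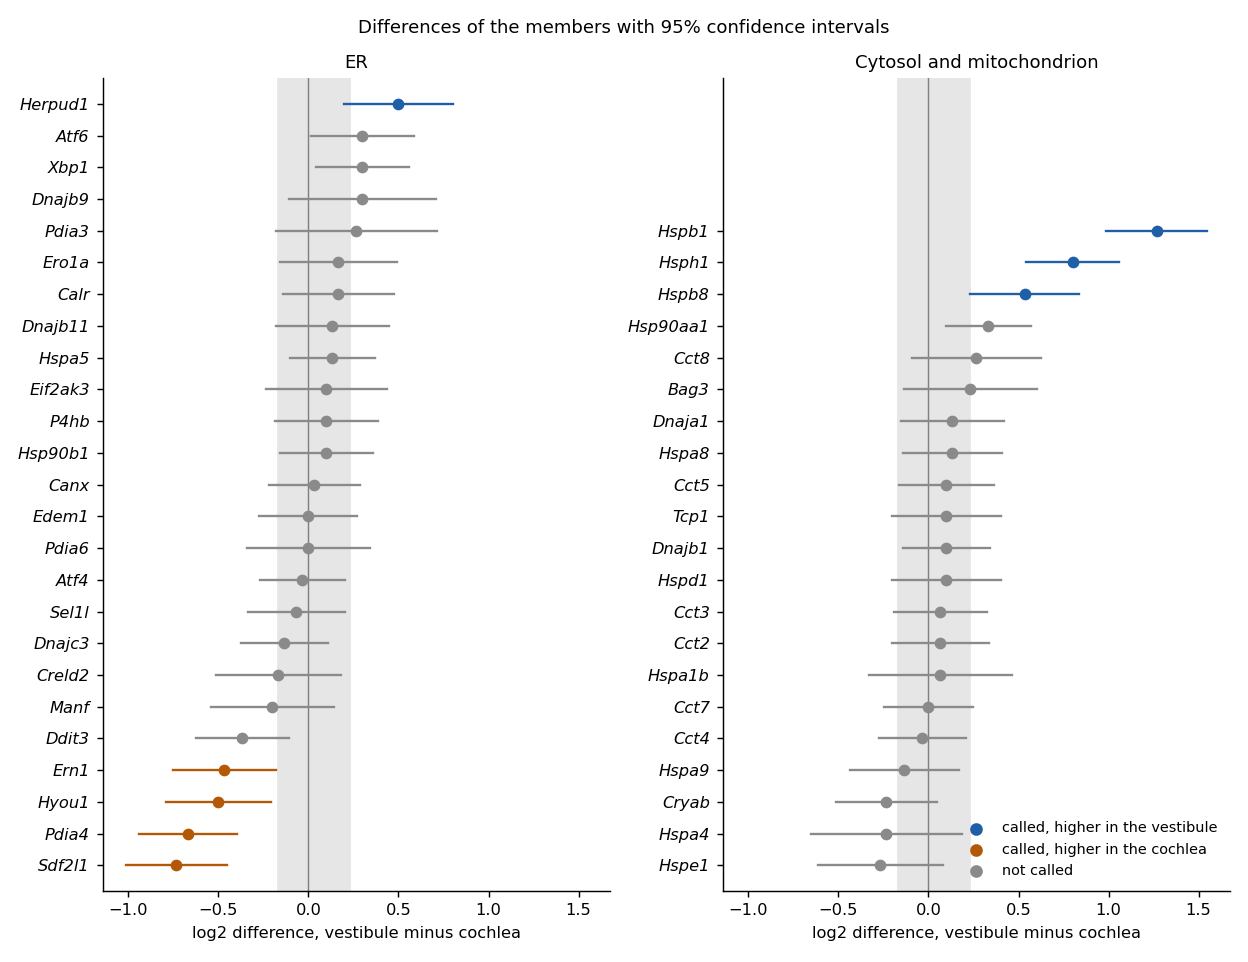
Log2 difference of each of the 46 members, vestibule minus cochlea, as a point with its 95% confidence interval as a line, for the ER genes (left) and the cytosolic and mitochondrial genes (right), ordered by the difference. Grey shading runs between the quartiles of all tested genes, -0.17 and 0.23. The ER panel carries its called genes mostly at the lower end, from Ern1 at -0.47 to Sdf2l1 at -0.73, and the other panel only at the upper end, from Hspb8 at 0.53 to Hspb1 at 1.27.

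Among the chaperones of the ER lumen and membrane, the Hsp70 of the ER, Hspa5 (BiP), showed no call. It read 13.7 on all 3 cochlear arrays and 13.9, 13.8 and 13.8 on the vestibular arrays. The vestibular arrays were thus all above the cochlear ones, by a difference of only 0.13 (95% confidence interval -0.10 to 0.37, adjusted p = 0.453). Its partner Hsp90b1, the Hsp90 of the ER, differed by 0.10, and the lectin chaperones Calr and Canx, which hold glycoproteins, by 0.17 and 0.03, with overlapping arrays in each. Hyou1, the large Hsp70 relative that exchanges the nucleotide of Hspa5, was the exception. It read 11, 10.8 and 11.2 in the cochlea and 10.5 on each vestibular array. All 3 cochlear arrays were higher, and the difference was -0.50 (standard error 0.13, adjusted p = 0.0292), a fold of 1.41. This call depended on the probe set and on the number of arrays. A second tested probe set of Hyou1 differed by only -0.10 (adjusted p = 0.787). Without vestibule replicate 1, 2 or 3 the difference stayed at -0.50 but the adjusted p rose to 0.114, 0.105 and 0.109.

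The disulfide enzymes make and rearrange the disulfide bonds of secreted proteins, and 4 of the 5 were not called. Pdia3, Pdia6, P4hb and the oxidase Ero1a differed by 0.27, 0.00, 0.10 and 0.17, with overlapping arrays throughout. Pdia4 alone was called. This isomerase read 9.7, 9.4 and 9.5 in the cochlea and 8.9, 8.8 and 8.9 in the vestibule. The tissues did not overlap, and the difference of -0.67 (standard error 0.12, adjusted p = 0.00531), a 1.59-fold higher level in the cochlea, was called under each of the 19 alternatives tried.

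The J proteins of the ER hand unfolded proteins to Hspa5, and Dnajb9, Dnajb11 and Dnajc3 differed by 0.30, 0.13 and -0.13 without a call. Dnajb9 spread widely in the cochlea (10.0, 10.5 and 9.8, against 10.5, 10.4 and 10.3 in the vestibule), and without cochlea replicate 2 its difference was 0.50 and called (adjusted p = 0.041, against 0.319 with all arrays and up to 0.632 under the other alternatives). Sdf2l1, a lumenal protein that works with ER J proteins and Hspa5, was called in the opposite direction. It read 8.6, 8.3 and 8.3 in the cochlea and 7.7, 7.7 and 7.6 in the vestibule. Its difference of -0.73 (standard error 0.12, adjusted p = 0.00388), or 1.66-fold, was the largest of the ER genes, held under all 19 alternatives, and rests on the only probe set that names the gene. Manf, a small protein that binds Hspa5 and can be secreted, and Creld2, a lumenal protein induced with it, differed by -0.20 and -0.17 with overlapping arrays.

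Of the genes of ER-associated degradation, in which misfolded proteins are passed back to the cytosol, Herpud1 was the only ER member called higher in the vestibule. This membrane protein of the degradation complex read 9.4, 9.5 and 9.1 in the cochlea and 9.9, 9.8 and 9.8 in the vestibule. Every vestibular array was above every cochlear one, with a difference of 0.50 (standard error 0.13, adjusted p = 0.0335). Its second probe set differed by 0.30 (adjusted p = 0.178). The call was lost without vestibule replicate 1, 2 or 3 (adjusted p = 0.143, 0.105 and 0.109, with differences of 0.47, 0.52 and 0.52). Sel1l, the scaffold of the ubiquitin ligase, and Edem1, which picks out glycoproteins for degradation, differed by -0.07 and 0.00.

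The sensors and transcription factors of the unfolded protein response went in both directions. Ern1, the sensor that splices the Xbp1 transcript, read 9.2, 9.2 and 9.0 in the cochlea and 8.8, 8.7 and 8.5 in the vestibule. The cochlear arrays were all higher, and the difference was -0.47 (standard error 0.13, adjusted p = 0.0366). Dimmer probe sets of Ern1 differed by 0.03 and -0.23 without a call, and the call was lost without cochlea replicate 1 (adjusted p = 0.111), vestibule replicate 2 (0.106) or vestibule replicate 3 (0.139).

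Ddit3, the stress-induced factor CHOP, read 7.8, 7.8 and 7.9 in the cochlea and 7.4, 7.4 and 7.6 in the vestibule. Its arrays did not overlap either, but its difference of -0.37 (adjusted p = 0.0612) was a fold of 1.29, just under the minimum. It was called under 6 of the 19 alternatives, among them leaving out cochlea replicate 2 (-0.38, adjusted p = 0.0719) or vestibule replicate 3 (-0.43, adjusted p = 0.0741), within a range of 0.0361 to 0.185 over all of them.

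Xbp1, the factor that Ern1 activates, read 11.4, 11.6 and 11.4 in the cochlea and 11.7, 11.8 and 11.8 in the vestibule. It was not called at its brightest probe set (0.30, adjusted p = 0.118), whereas another probe set differed by 0.53 and was called (adjusted p = 0.0161). Its remaining probe sets, at 0.50 (adjusted p = 0.102) and 0.00, were not called. The probe sets used here do not separate the spliced form of Xbp1 from the unspliced one. Atf6, the sensor cleaved in the Golgi, differed by 0.30 (adjusted p = 0.158). The sensor kinase Eif2ak3 (PERK) and Atf4, the factor translated downstream of it, differed by 0.10 and -0.03.

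**Figure D2:**
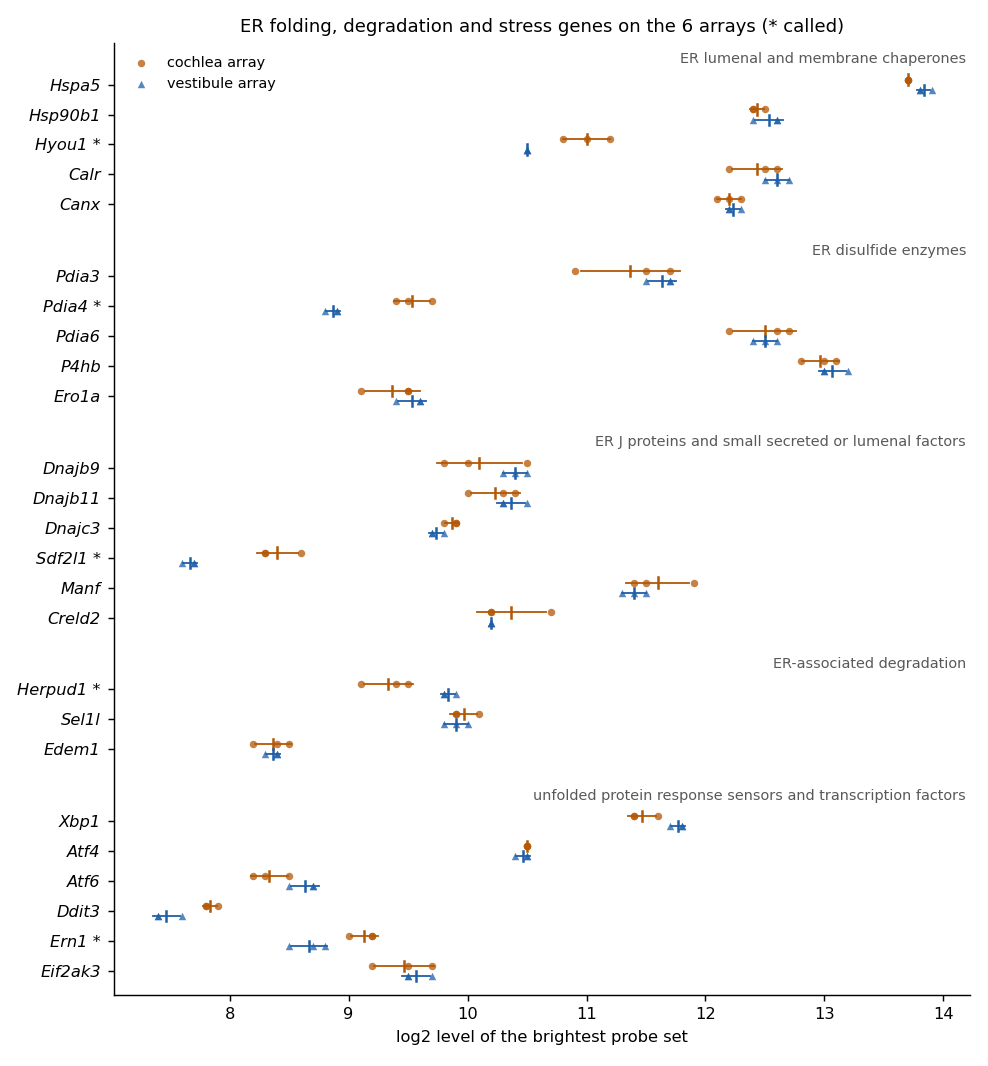
Log2 level of the brightest probe set of the 25 ER genes on each array (circles, cochlea; triangles, vestibule), with the mean as a tick and the standard deviation of the 3 arrays as a line, grouped by role; an asterisk marks a called gene. The cochlear arrays of Pdia4, Sdf2l1, Hyou1, Ern1 and Ddit3 lie wholly to the right of the vestibular ones, those of Herpud1, Xbp1 and Hspa5 wholly to the left, and the other 17 genes overlap.

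Some promoters of the ER genes hold a shared sequence, which is shown here as a description. In the RefSeq promoters of build GRCm38.p6, which run from 250 bases before each start to 50 bases after it, the ER stress element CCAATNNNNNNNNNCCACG (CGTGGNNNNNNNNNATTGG on the opposite strand) was searched on both strands. It was found in 37 of 27025 genes (0.137%), and in 7 of the 22 ER members whose promoter was in the table. None of the 16 cytosolic and mitochondrial members with a promoter held it. A second form, ATTGGNCCACG (CGTGGNCCAAT on the opposite strand), was found in 12 genes (0.044%), 2 of them ER members. No promoter held both forms. The matches that lie before the start are printed 5 prime to 3 prime on the strand of the gene, with 15 bases on each side and the match in capitals.
Hspa5, chr2:34772010-34772058, plus strand: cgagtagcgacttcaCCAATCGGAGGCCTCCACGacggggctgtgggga
Hsp90b1, first match, chr10:86705623-86705671, minus strand: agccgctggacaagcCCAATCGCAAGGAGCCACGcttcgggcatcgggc
Hsp90b1, second match, chr10:86705518-86705566, minus strand: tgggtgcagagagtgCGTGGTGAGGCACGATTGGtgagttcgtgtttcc
Calr, chr8:84847060-84847108, minus strand: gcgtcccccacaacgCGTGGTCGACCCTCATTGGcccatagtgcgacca
Canx, chr11:50325785-50325833, minus strand: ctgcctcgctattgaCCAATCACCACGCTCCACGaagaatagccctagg
Pdia6, chr12:17266476-17266524, plus strand: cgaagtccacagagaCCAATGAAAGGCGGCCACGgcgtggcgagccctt
Dnajc3, chr14:118937812-118937860, plus strand: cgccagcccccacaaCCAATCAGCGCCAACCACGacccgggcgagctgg
Creld2, chr15:88819505-88819553, plus strand: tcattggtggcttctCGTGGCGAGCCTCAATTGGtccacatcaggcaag
Herpud1, second form, chr8:94386362-94386402, plus strand: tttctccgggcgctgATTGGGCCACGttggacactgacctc

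Among the matches to the first form, that of Hspa5 began 65 bases before the start and the farther one of Hsp90b1 212 bases before it. None of the 7 genes with the first form was called, and their differences ran from -0.17 to 0.17. Over all genes 15.1% were called towards the vestibule and 7.97% towards the cochlea. With 7 genes, the lack of a call is therefore not in itself a result about the element. The 4 ER genes called among those with a promoter in the table, Pdia4, Sdf2l1, Ern1 and Herpud1, were among the 15 without an exact match to the first form. A copy with a changed base, or one outside the stretch searched, would not have been found. Hyou1, which was also called, had no promoter in the table. The second form stood in Herpud1, 52 bases before its start, and in Dnajb11, after the start. These letters are a description of the sequence, and whether a factor binds there was not measured.

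Of the members in the cytosolic Hsp70 and Hsp110 families, Hspa8, Hspa1b and Hspa4 were not called at their brightest probe set, whereas Hsph1 was. Hspa8, the constitutive Hsp70, read 13.3, 13.4 and 13.6 in the cochlea and 13.5, 13.6 and 13.6 in the vestibule, a difference of 0.13 with overlapping arrays. The heat-inducible Hspa1b read 7.3, 7.0 and 7.4 in the cochlea and 7.3, 7.6 and 7.0 in the vestibule, a difference of 0.07 (95% confidence interval -0.33 to 0.47). A dimmer probe set of Hspa1b differed by 0.50 and was called (adjusted p = 0.0536) and another by 0.23 and was not (adjusted p = 0.306). Since the neighboring Hspa1a is nearly identical in sequence the probe sets may read both genes. Hspa4, an Hsp110 relative, differed by -0.23. Hsph1, the Hsp110 that releases nucleotide from Hsp70 and helps to dissolve aggregates, read 10.4, 10.6 and 10.4 in the cochlea and 11.3, 11.2 and 11.3 in the vestibule. The tissues were well apart, with a difference of 0.80 (standard error 0.11, adjusted p = 0.00143) or 1.74-fold. A second probe set of Hsph1 differed by 1.20 (adjusted p = 0.00636), and the call held under all 19 alternatives.

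Hsp90aa1, the inducible cytosolic Hsp90, read 11.8, 11.9 and 11.9 in the cochlea and 12.2 on each vestibular array. Although the arrays did not overlap, the difference of 0.33 (adjusted p = 0.0632) was a fold of 1.26 and fell short of the minimum. A second probe set of Hsp90aa1 differed by 0.73 and was called (adjusted p = 0.00762), and another by 0.30 and was not (adjusted p = 0.125). With the mean of its 3 tested probe sets the gene was called at 0.46 (adjusted p = 0.00877, over a range of up to 0.159 in the 19 alternatives).

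Of the 3 small heat shock proteins, which hold unfolding proteins until Hsp70 takes them over, 2 were called higher in the vestibule. Hspb1 (Hsp25), which also binds actin filaments, read 8.4, 8.6 and 8.5 in the cochlea and 9.8, 9.9 and 9.6 in the vestibule. Its difference of 1.27 (standard error 0.12, adjusted p = 1.86e-04), or 2.41-fold, was the largest of all 46 members. A second probe set of Hspb1 gave 1.3, and the call held under all 19 alternatives. Hspb8, which works with Bag3 in clearing aggregates, read 8.1, 7.7 and 8.0 in the cochlea and 8.5, 8.5 and 8.4 in the vestibule. The vestibular arrays were all higher, by 0.53 (standard error 0.13, adjusted p = 0.0252) at its brightest probe set. The call was lost at that probe set without vestibule replicate 1 or 2 (0.52 in both cases, adjusted p = 0.114 and 0.105), while the other probe sets of Hspb8 differed by 1.17 (adjusted p = 0.00061) and 0.67 (adjusted p = 0.0148). Cryab, the remaining small heat shock protein, pointed the other way by -0.23 with overlapping arrays (adjusted p = 0.261).

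The remaining partners were not called. The J proteins Dnaja1 and Dnajb1, which bring substrates to cytosolic Hsp70, differed by 0.13 and 0.10, and the co-chaperone Bag3 by 0.23. In the mitochondrion the Hsp70 Hspa9 and the chaperonin Hspd1 differed by -0.13 and 0.10. Hspe1, the lid of that chaperonin, read 11.2, 11.7 and 11.2 in the cochlea and 11.1 on each vestibular array. The cochlear arrays of Hspe1 were all higher, but only by a difference of -0.27 (95% confidence interval -0.61 to 0.08, adjusted p = 0.296).

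No subunit of the chaperonin CCT was called. The 7 subunits Tcp1, Cct2, Cct3, Cct4, Cct5, Cct7 and Cct8, which form 1 ring-shaped complex, differed by -0.03 to 0.27 with a median of 0.07, and the arrays of the tissues overlapped for every subunit. For 6 of the 7 the 95% confidence interval lay between -0.5 and 0.5, the exception being Cct8 with a difference of 0.27 (95% confidence interval -0.09 to 0.62).

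**Figure D3:**
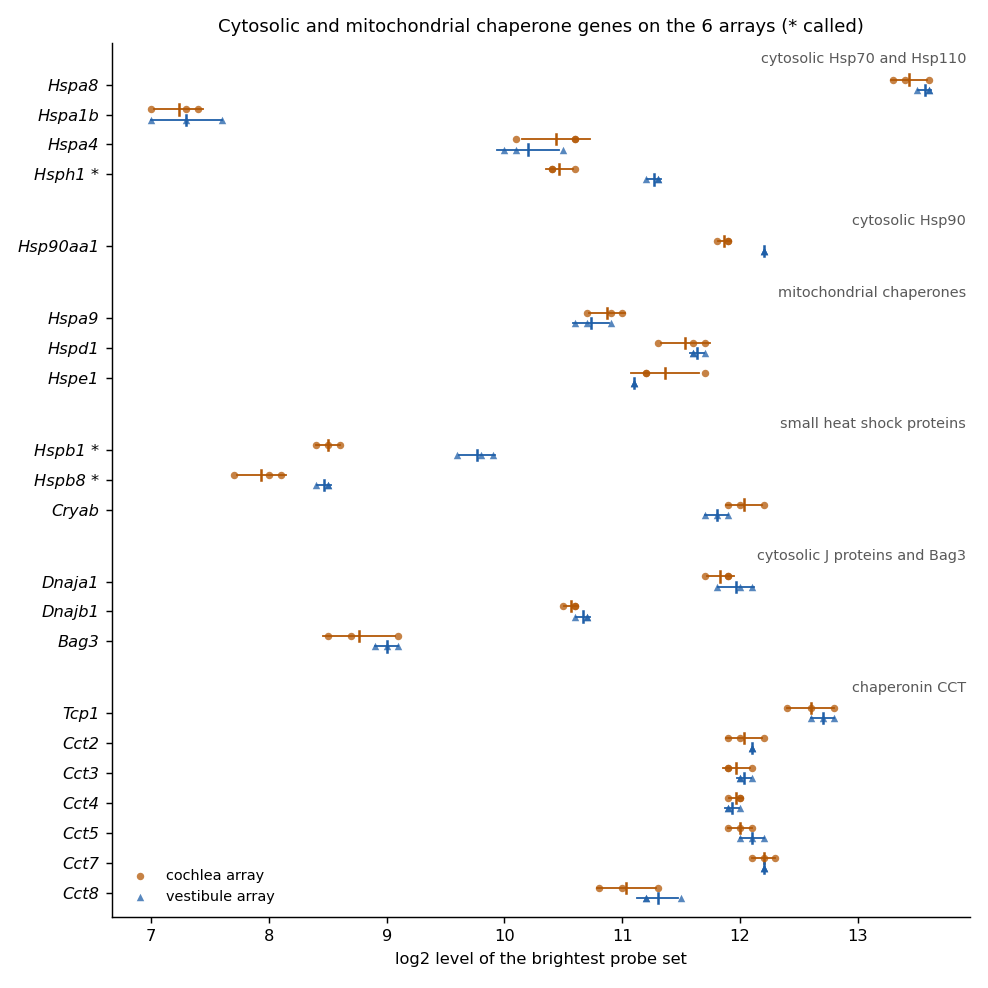
Log2 level of the brightest probe set of the 21 cytosolic and mitochondrial genes on each array (circles, cochlea; triangles, vestibule), with the mean as a tick and the standard deviation of the 3 arrays as a line, grouped by role; an asterisk marks a called gene. The vestibular arrays lie wholly to the right for Hspb1, Hsph1, Hspb8 and Hsp90aa1, the cochlear ones for Hspe1, and the other 16 genes, the 7 CCT subunits among them, overlap.

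GAANNTTC, searched here as a short form of the heat shock element, reads the same on both strands. It is a common sequence and was found in the promoters of 2442 genes (9.04%). Of the 16 cytosolic and mitochondrial members with a promoter, 9 held it, and 0 of the 22 ER members did. It is shown here because it stands in called and uncalled genes alike. Below, the element means an exact match to this form. Another arrangement of the heat shock element, or a copy outside the stretch searched, would not have been found. The capitals mark the matches, again with 15 bases on each side, and Dnaja4, a cytosolic J protein taken up below, is added from the further lists as the one of their vestibular calls in which the element was found.
Hspb1, chr5:135887787-135887844, plus strand: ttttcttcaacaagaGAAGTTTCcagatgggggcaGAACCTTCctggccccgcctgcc
Hspa1b, chr17:34959320-34959357, minus strand: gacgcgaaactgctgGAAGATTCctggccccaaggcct
Hspe1, chr1:55088049-55088086, plus strand: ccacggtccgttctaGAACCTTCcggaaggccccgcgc
Dnaja1, chr4:40722329-40722366, plus strand: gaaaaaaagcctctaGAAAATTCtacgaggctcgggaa
Dnaja4, chr9:54699454-54699529, plus strand: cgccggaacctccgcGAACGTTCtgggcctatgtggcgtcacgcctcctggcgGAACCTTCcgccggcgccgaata

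Hspb1 and Dnaja4 held 2 matches each, and the first of them began 117 bases before the start of Hspb1 and 90 bases before that of Dnaja4. The match of Hspe1 lies in the stretch it shares with Hspd1, which is read in the opposite direction, so that 1 element is counted for both genes. In Hsph1, Hspb8 and Bag3 the match lay after the start. All 3 called genes of this compartment held the element, together with 6 that were not called (Hspa1b, Hspd1, Hspe1, Dnaja1, Cct2 and Bag3), and the 9 differed by -0.27 to 1.27. The 7 members with a promoter and without a match differed by -0.23 to 0.27, and 0 of them were called. Over all genes, 15.1% were called towards the vestibule and 7.97% towards the cochlea. With 9 and 7 genes these counts are a description only. Whether calls go with the element was not tested. In the further lists of the pathway described below, 10 of 95 genes with a promoter held it, close to the share of all genes. Besides Dnaja4 these included Asns and Hspb3, which were called towards the cochlea, while the promoters of Hspa4l, Hspa2, Hspb7 and Nfe2l2, which were called towards the vestibule, held no match.

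The probe sets of a gene give a repeat reading of the same RNA. The 46 members had 126 probe sets that name 1 gene, and 110 of them were bright enough to be tested. Of the 55 tested probe sets of ER genes, 2 were called towards the vestibule, of Herpud1 and Xbp1, and 4 towards the cochlea, the latter 1 probe set each of Sdf2l1, Pdia4, Hyou1 and Ern1. Of the 55 tested probe sets of cytosolic and mitochondrial genes, 9 were called towards the vestibule and 0 towards the cochlea. Over all tested probe sets, 12% were called towards the vestibule and 7.37% towards the cochlea. Every tested probe set of Hspb1, Hsph1 and Hspb8 was called in the same direction, whereas no further tested probe set of Hyou1, Ern1 or Herpud1 was called. The second probe set of Pdia4 was below the filter on low values and was not tested.

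**Figure D4:**
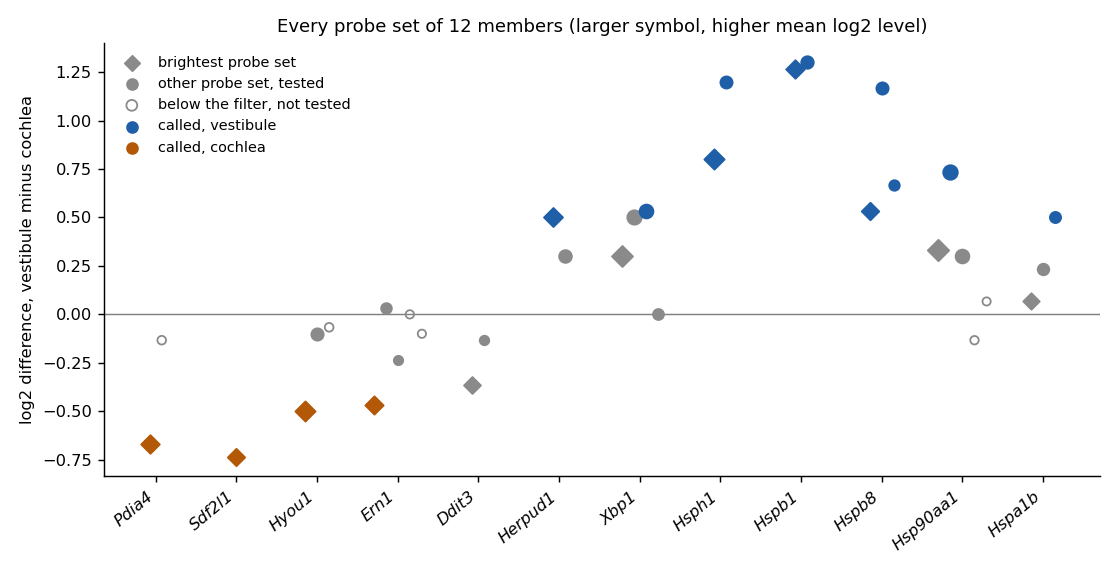
Log2 difference, vestibule minus cochlea, of each probe set of 12 members, the 8 called ones and Ddit3, Xbp1, Hsp90aa1 and Hspa1b (diamonds, brightest probe set; circles, others; open circles, below the filter; symbol size rises with the mean log2 level). All probe sets of Hsph1, Hspb1 and Hspb8 lie at 0.53 or above, while those of Hyou1 and Ern1 other than the brightest lie between -0.23 and 0.03.

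Other genes of the same pathways were counted in the same way. Over all genes, 15.1% were called towards the vestibule and 7.97% towards the cochlea. Of 27 further ER folding genes tested, 0 were called towards the vestibule and 1 (3.7%) towards the cochlea, with a median difference of 0.00. That gene was Pdia5, a relative of Pdia4, which read 10.0, 10.1 and 9.8 in the cochlea and 8.9, 8.9 and 9.0 in the vestibule. Its difference was -1.03 (standard error 0.12, adjusted p = 4.8e-04). For 30 further genes of ER-associated degradation and of the stress response, the median was 0.10. Of these, 2 (6.67%) were called towards the vestibule and 1 (3.33%) towards the cochlea. They were Nfe2l2, a factor of the oxidative stress response (0.73, adjusted p = 0.0336), Erlec1, a lectin of ER degradation (0.40, adjusted p = 0.0665), and Asns, the asparagine synthetase that Atf4 induces (-0.47, adjusted p = 0.021).

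Of 47 further cytosolic and mitochondrial chaperones, 4 (8.51%) were called towards the vestibule and 1 (2.13%) towards the cochlea, with a median of 0.00. All genes stood at 15.1% and 7.97%. Whether any of these further lists differs from that background was not tested. The J protein Dnaja4 read 8.3, 8.1 and 7.9 in the cochlea and 9.8, 9.6 and 9.5 in the vestibule. Its difference was 1.53 (standard error 0.14, adjusted p = 1.31e-04). Hspa4l, a sister of Hsph1 in the Hsp110 family, read 7.9, 7.8 and 7.4 in the cochlea and 9.2, 9.0 and 9.0 in the vestibule. Its difference was 1.37 (standard error 0.15, adjusted p = 3.8e-04). Both were thus about as far apart as Hspb1. The other called genes were Hspa2, an Hsp70 best known from the testis (0.47, adjusted p = 0.0339), and 2 small heat shock protein genes, Hspb7 (0.40, adjusted p = 0.0786) and Hspb3 (-0.40, adjusted p = 0.0825). Immediate early genes can follow handling of tissue. Of 14 tested, 3 were called towards the vestibule (Fos at 1.37, Ier3 at 0.60 and Dusp1 at 0.40). Another 2 were called towards the cochlea (Ier2 at -0.63 and Btg2 at -0.57). These shares of 21.4% and 14.3% rest on few genes and stand beside 15.1% and 7.97% of all genes. The part of immediate early genes in the chaperone differences was not tested.

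**Figure D5:**
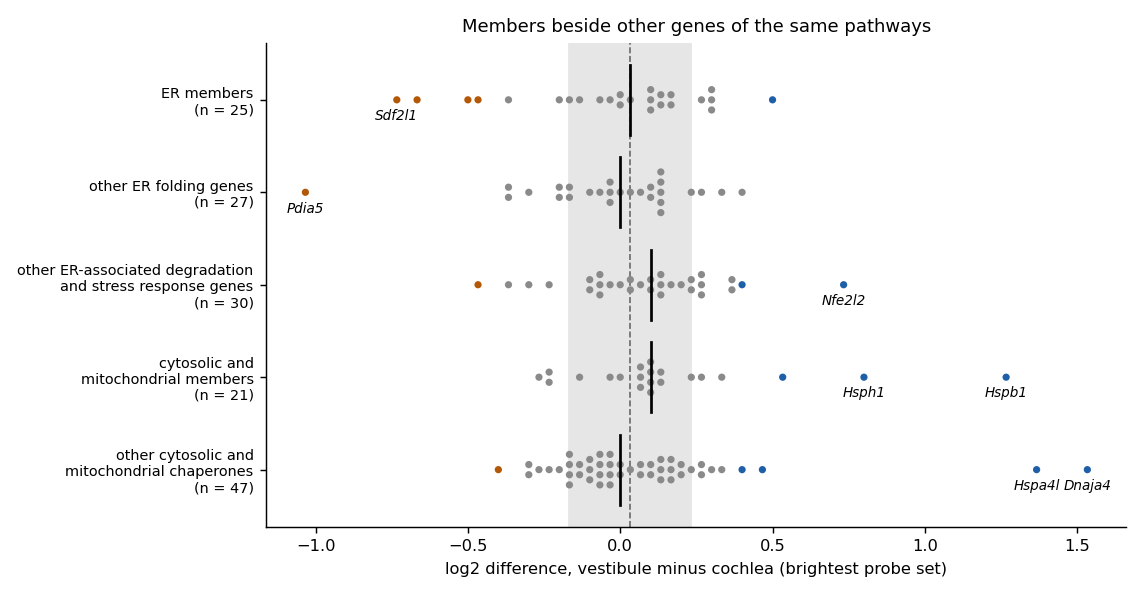
Log2 difference, vestibule minus cochlea, of every tested gene (points) in the 2 groups of members and 3 further lists, with the median of each as a black bar, the median of all genes (0.03) as a dashed line and the span between their quartiles shaded. Blue points were called towards the vestibule and brown points towards the cochlea. The 5 medians lie between 0.00 and 0.10, and the points beyond 1 are Hspb1, Hspa4l and Dnaja4 on the vestibular side and Pdia5 on the cochlear side.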

How the data were processed

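RNA of 3 cochlear and 3 vestibular samples was hybridized to Affymetrix mouse arrays. The authors deposited log2 expression values from the robust multiarray average with quantile normalization, with 1 decimal. Values ran from 2.8 to 15, with a median of 5.6 to 5.7 per array, and were used as deposited. The versions used in that step are not given in the sources at hand. The authors kept probe sets by Present calls, which need probe-level values, so the same number of probe sets was kept by mean log2 value, with a lowest mean of 4.68, control probe sets aside. In the probe annotation 1 gene is named for 34945 probe sets, several for 932 and none for 9160.

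The tissues were compared across all kept probe sets with limma 3.58.1 in R 4.3.3 (lmFit and eBayes, two-sided), with Benjamini-Hochberg adjustment over all of them. The fit was tested on simulated data. Arrays limit the precision by their number, and an exact permutation test of 3 against 3 cannot give a p below 0.1. Each called member was named with its values, uncalled ones by their difference, and of other lists up to 4 called genes. The members and lists were chosen with earlier results of these data known. Alternatives tried were, for the filter, none or the 20000 brightest probe sets; for scaling, centring each array on its median or quantile normalization once more; for the test, a plain t-test, an intensity trend, array weights or a replicate block; and for the call, a limit of 0.05 or no fold limit. Genes were also read by the average of their tested probe sets or without _x_at and _s_at probe sets, and each array was left out in turn. Noise within 0.05 of each value, against the rounding, was chosen after the data were seen. Files were read with the R package data.table (version 1.17.8), and sequences and figures were made with Python 3.11.15, pandas 2.3.3, numpy 2.4.6 and matplotlib 3.10.9.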

Additional observations from a re-analysis of the deposited data

How the results depend on the processing

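No difference of a called member, of Dnajb9, Ddit3 or Hsp90aa1 turned its sign under any of the 19 alternatives. Pdia4, Sdf2l1, Hsph1 and Hspb1 were called under all of them, Hspb8 under 17, Herpud1 and Ern1 under 15 and Hyou1 under 14. Some alternatives could hardly change a call, since taking away the fold limit cannot lose one. Pdia4 and Sdf2l1 had 1 tested probe set each, so averaging or leaving out probe sets gave the same difference. ER genes called higher in the vestibule fell from 1 to 0 with a plain t-test, in which Herpud1 had an adjusted p of 0.106, and numbered 0 to 2 with 1 array left out. ER genes called higher in the cochlea fell from 4 to 2 when the probe sets of a gene were averaged, where Hyou1 differed by -0.30 and Ern1 by -0.22 (adjusted p = 0.0666 and 0.135), and numbered 2 to 5 with 1 array left out. Cytosolic and mitochondrial genes called higher in the vestibule numbered 2 to 4 over all alternatives, and none was called higher in the cochlea. Their median difference moved from 0.10 to 0.033 with median centring and to 0.017 with a second quantile normalization, and the median of the ER genes turned to -0.03 with both, settings that moved the median of all genes from 0.03 to -0.03. The cause of the other changes was not tested. Replicate numbers are shared between the tissues, but the deviations of same-numbered arrays correlated at only 0.217, 0.153 and -0.000547 for replicates 1, 2 and 3. The numbers were therefore not taken as pairs. With the replicate block the counts stayed at 1, 4, 3 and 0, and replicates 1 and 2 but not 3 of the cochlea correlated best with their own number. The limit on all results is the number of arrays, 3 in each tissue.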
